A study of Mus musculus with 21 samples.

Results

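Bulk RNAseq counts of 10 interferon-inducible effector genes were examined in tissue labelled as neocortex from rNLS8 mice, a mouse model of TDP-43 pathology. The methods call it brain cortex, and a legend that gives the same numbers of animals calls it hippocampus. The genes were the interferon-induced transmembrane genes Ifitm1, Ifitm2 and Ifitm3, the Mx genes Mx1 and Mx2, Rsad2 (viperin), Bst2 (tetherin), and the small interferon-inducible genes Ifi27, Ifi27l2a and Ifi44. They were chosen by symbol from the 48474 rows of the count table, and each symbol matched 1 row without further copies. The choice was made with earlier results of the comparison of rNLS8 with wild-type mice known, so the values of that comparison are a description, and the number of these genes past a threshold is printed beside the share of all genes past it. Differences between cohorts were tested.

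rNLS8 mice are bigenic animals in which the neurofilament heavy chain promoter drives a tetracycline-controlled transactivator (NEFH-tTA, line 8) and thereby a human TDP-43 without its nuclear localization signal (tetO-hTDP-43ΔNLS, line 4), on a C57BL/6J background. The study describes expression as nearly confined to neurons, with a few oligodendrocytes. The wild-type group was made of monogenic littermates. All 21 mice, the controls included, had been injected at 17 to 19 weeks of age, through a cerebral ventricle, with 10 µL that carried 350 µg of an antisense oligonucleotide without a target. Doxycycline, which keeps the transgene silent, was fed at 200 mg/kg until 2 weeks after the injection, and tissue was taken 3 weeks after the diet was changed. Cohort A held 4 wild-type and 3 rNLS8 mice and cohort B held 7 of each, and every library came from a single mouse. The labels give A and B as batches, which are called cohorts here. The legend with the same numbers of animals treats all of them as 1 cohort. Mice are named by genotype and a number, with wild-type mice 8 to 11 and rNLS8 mice 8 to 10 in cohort A. The study pooled both sexes of rNLS8 mice, and no sex is stated for single animals in the sources used here. Xist, which is transcribed from the inactive X chromosome of females, was above 1000 normalized counts in all 7 mice of cohort A but in 3 of 7 wild-type and 1 of 7 rNLS8 mice of cohort B, and at most 11.5 in the others. Comparisons between the cohorts therefore also differ in Xist, and fits with Xist as a covariate are given beside them, an alternative chosen after seeing the data.

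Interferons bind cell surface receptors that signal through the JAK kinases to a complex of STAT proteins with IRF9, and this complex switches on interferon-stimulated genes through a DNA motif called the interferon-stimulated response element (ISRE). The effectors described here act at several steps of a viral life cycle. IFITM proteins hinder the fusion of viral with cellular membranes, Mx proteins are dynamin-like GTPases that trap viral nucleocapsids, viperin makes a chain-terminating nucleotide, and tetherin holds budding virions on the cell surface. Laboratory C57BL/6 mice carry defective alleles of both Mx genes, and RefSeq classes Mx1 and Mx2 as transcribed pseudogenes, so their transcripts do not stand for functional protein. In the brain, type I interferon is known to act on microglia, astrocytes, endothelium and neurons alike.

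Promoter sequences are shown first because some of these genes share the ISRE and because the Ifitm genes, which are neighbors on chromosome 7, differed in their transcript levels. RefSeq promoters of build GRCm38.p6 were matched for 6 of the 10 genes (Ifitm1, Ifitm2, Ifitm3, Rsad2, Bst2 and Ifi44). Each window below runs 5′ to 3′ on the strand of the gene, from 250 bases before the start site, and has 280 bases. Capitals mark every match to the core of the ISRE, searched on both strands as GAAA, any 2 bases and GAAA. The windows are chr7:140955932-140956211 (minus strand) for Ifitm2, chr7:141010715-141010994 (minus strand) for Ifitm3, chr8:71537443-71537722 (minus strand) for Bst2 and chr12:26456423-26456702 (minus strand) for Rsad2.
Ifitm2: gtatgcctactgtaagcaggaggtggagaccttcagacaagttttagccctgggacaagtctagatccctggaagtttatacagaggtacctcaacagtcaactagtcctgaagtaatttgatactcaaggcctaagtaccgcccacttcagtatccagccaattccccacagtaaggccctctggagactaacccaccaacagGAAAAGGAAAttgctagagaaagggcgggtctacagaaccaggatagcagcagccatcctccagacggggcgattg
Ifitm3: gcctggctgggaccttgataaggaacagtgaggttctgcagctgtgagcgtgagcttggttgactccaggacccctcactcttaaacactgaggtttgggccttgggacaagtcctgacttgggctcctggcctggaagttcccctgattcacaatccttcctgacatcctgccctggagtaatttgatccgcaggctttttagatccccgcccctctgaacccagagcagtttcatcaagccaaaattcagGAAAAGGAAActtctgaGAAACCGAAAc
Bst2: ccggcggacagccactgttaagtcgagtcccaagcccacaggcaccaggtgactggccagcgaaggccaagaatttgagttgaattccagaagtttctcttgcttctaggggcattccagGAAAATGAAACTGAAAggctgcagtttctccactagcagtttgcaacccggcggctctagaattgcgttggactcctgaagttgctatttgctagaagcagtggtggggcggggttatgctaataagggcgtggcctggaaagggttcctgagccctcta
Rsad2: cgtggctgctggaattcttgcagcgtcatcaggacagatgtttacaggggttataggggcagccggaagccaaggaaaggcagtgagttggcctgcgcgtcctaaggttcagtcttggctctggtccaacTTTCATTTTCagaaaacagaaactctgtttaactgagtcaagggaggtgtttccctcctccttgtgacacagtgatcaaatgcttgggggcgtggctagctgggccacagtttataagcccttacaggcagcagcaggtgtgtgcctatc

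Ifitm3 and Bst2 each held 2 ISRE matches in these windows, and Ifitm2 and Rsad2 each held 1. Distances are counted in bases from the start site, which is 0. In Ifitm3 the matches lay just downstream, at 2 to 11 and at 19 to 28. Those of Bst2 overlapped each other, at -130 to -121 and at -124 to -115. The match of Ifitm2 was at -46 to -37 and that of Rsad2, on the opposite strand, at -120 to -111. Ifitm1 and Ifi44 had no match to these letters in their windows. Among all 32851 mouse promoters of the same length, 3.28% held at least 1 match. A looser pattern that is contained in every ISRE match, AANNGAAA, was found in 5 of the 6 windows (not in Ifitm1) and in 23.1% of all promoters. The gamma-activated site TTCNNNGAA was found in the windows of Ifitm3 and Bst2, where it overlapped an ISRE match, and in 7.83% of all promoters. For Ifitm1 and Ifitm2 the start site of these windows lies inside the longer RefSeq gene span. A match describes letters and was not tested for binding or function.

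The depth was even, with between 20700912 and 22263809 counts per mouse, so that 3 counts correspond to 0.135 to 0.145 CPM, which are counts relative to the total of the mouse. Levels are given as normalized counts, meaning reads rescaled with the effective library size of each mouse to the average of all mice. Tardbp, the mouse gene for TDP-43, was at 2574 ± 207 normalized counts (SD) among the 11 wild-type mice and between 4405 and 5053 in the 7 rNLS8 mice of cohort B. In the 3 rNLS8 mice of cohort A it was between 2363 and 3091, which overlapped the wild-type range of 2253 to 2827. A further row of this symbol, Tardbp-2, had 1577 to 1929 in wild-type mice. In rNLS8 mice it had 1477 to 2171 in cohort A and 2813 to 3343 in cohort B. How many reads of the human transgene were counted on this gene was not examined, so Tardbp checks the genotype labels in cohort B but not in cohort A, and values of each cohort alone are given for each of the 10 genes. The neocortical markers Cux2, Tbr1, Fezf2 and Rorb were all counted, with a summed level of 242.6 to 315.5 CPM in wild-type and 236.0 to 297.6 CPM in rNLS8 mice. No hippocampal marker was examined, so these levels do not tell neocortex from hippocampus.

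**Figure D1:**
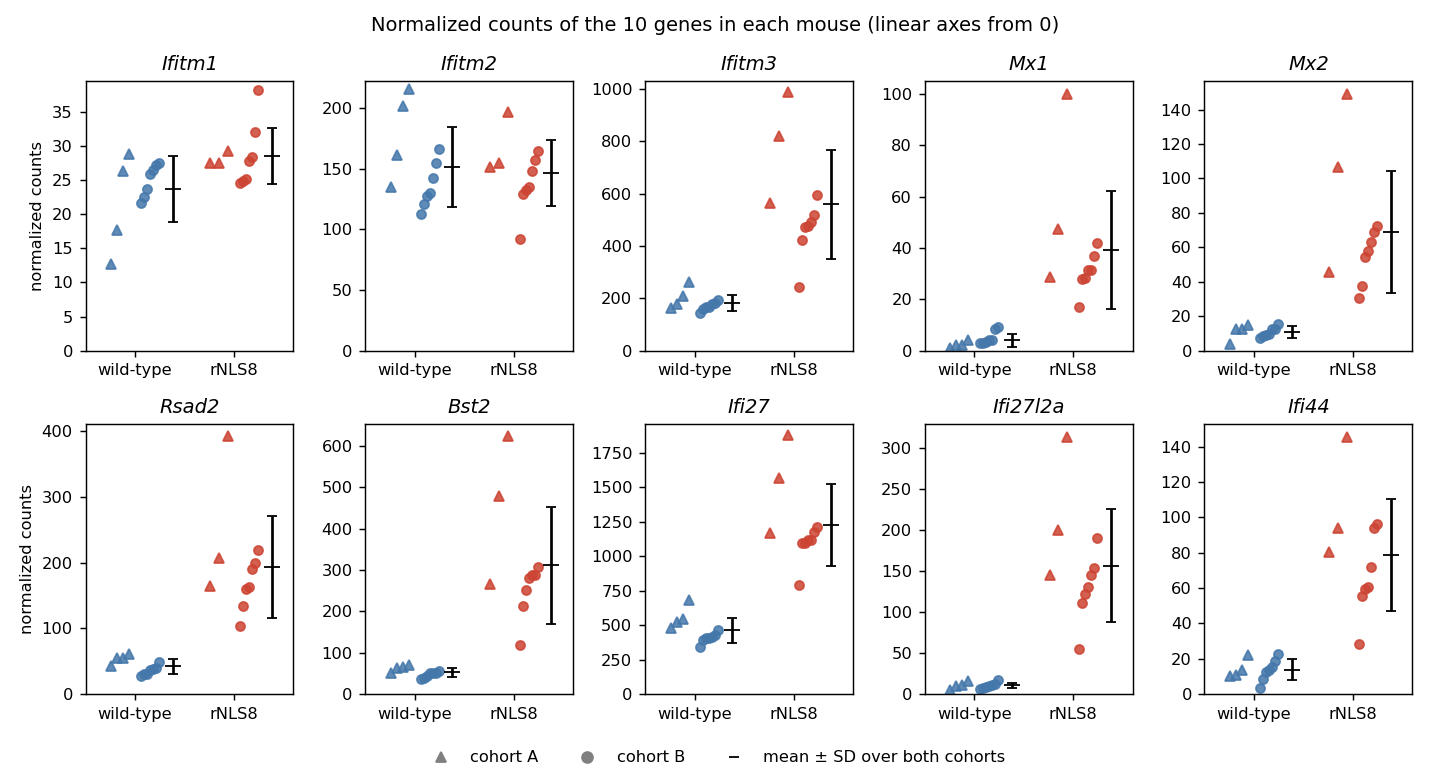
Normalized counts (vertical axes, linear and starting at 0) of each gene in each mouse, with wild-type mice in blue, rNLS8 mice in red, triangles for cohort A and circles for cohort B, and black bars for the mean ± SD over 11 wild-type and 10 rNLS8 mice. For 7 genes every rNLS8 mouse lies above every wild-type mouse, Ifitm3 is separated but for 1 rNLS8 mouse, and Ifitm1 and Ifitm2 overlap.

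Across both cohorts, 8 of the 10 genes were higher in rNLS8 mice at an adjusted p under 0.05 in edgeR, beside 23.0% of the 18248 genes tested that were higher and 21.7% that were lower (44.7% in either direction). Within cohort A alone 8 of the 10 were called, beside 6.99% of all genes higher, and within cohort B alone 8, beside 19.3%. All 8 exceeded 1 on the log2 scale, which 1.38% of the genes tested did as well, and for 7 no rNLS8 mouse overlapped a wild-type mouse, beside 3.85% of the genes tested. Nothing is read from these counts, since the genes were chosen with this comparison known. The median log2 fold change was 2.37 for the 10 genes and -0.00067 for all genes tested. All 10 passed the filter on low counts, but Mx1, Mx2, Ifi27l2a and Ifi44 did so only through the rNLS8 mice, since the filter asked for 10 mice above its level and 0, 6, 5 and 9 wild-type mice reached it. In bulk tissue, a change in the number of cells of a type and a change in RNA per cell cannot be told apart.

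Of the 3 Ifitm genes, Ifitm3 was separated by genotype in nearly all mice, whereas the values of Ifitm1 and Ifitm2 overlapped. Ifitm3 (chromosome 7, 141009590 to 141010744, minus strand) is the family member known for restricting influenza virus in endosomes. Its lowest, median and highest normalized counts were 144.6, 178.4 and 260.8 for the 11 controls and 242.9, 505.3 and 988.5 for the 10 rNLS8 mice. Thus 9 of 10 rNLS8 mice were above every wild-type mouse, and rNLS8 mouse 1 at 242.9 was below wild-type mouse 8 at 260.8. The means were 181.8 ± 31.4 (SD, n = 11) and 559.0 ± 208.8 (SD, n = 10), and the log2 fold change was 1.62 (standard error 0.13). Within cohort A the log2 fold change was 1.99 (standard error 0.20) and within cohort B it was 1.43 (standard error 0.14).

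Ifitm2 (chromosome 7, 140954837 to 140959686, minus strand) is a close relative of Ifitm3 that also resides in endosomal membranes. Its wild-type mice ranged from 112.7 to 215.9 normalized counts with a median of 142.0, and rNLS8 mice from 92.1 to 196.7 with a median of 149.6. The groups overlapped throughout, and no rNLS8 mouse was above every wild-type mouse. The log2 fold change was -0.02 (standard error 0.10) over both cohorts, -0.06 (standard error 0.19) in cohort A and near 0 (standard error 0.12) in cohort B, and it turned to 0.05 if only the library size was used for scaling. Of all stretches of 100 bases in its GENCODE transcripts, 34.9% also occur in a transcript of another gene, mostly Gm45717, so reads from these stretches could have been discarded or assigned elsewhere by the counting, and its level is uncertain. Of the genes that share them, Gm45717 and Gm8865 had no row under these symbols, and Gm11951 had 7 reads over all 21 mice. The corresponding share was 0 for Ifitm1 and Ifitm3.

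Ifitm1 (chromosome 7, 140967429 to 140969827, plus strand), whose protein sits mainly at the plasma membrane, had the lowest level per length of the 3 Ifitm genes. Wild-type mice had 12.8, 25.9 and 28.8 normalized counts as lowest, median and highest, and rNLS8 mice had 24.5, 27.6 and 38.2. Only 3 of 10 rNLS8 mice were above every wild-type mouse, and the low end of the wild-type range came from wild-type mice 8 and 11 at 17.7 and 12.8, both in cohort A. The log2 fold change was 0.26 (standard error 0.13) over both cohorts, with 0.41 (standard error 0.31) in cohort A and 0.19 (standard error 0.13) in cohort B. With scaling by library size alone it was 0.33, a choice that moved the median of all genes to 0.076.

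Within each mouse, the ratio of Ifitm3 to Ifitm2 reads does not depend on the scaling between mice. This ratio was between 1.0 and 1.71 in wild-type mice (median 1.17) and between 2.64 and 6.38 in rNLS8 mice (median 3.62). Every rNLS8 mouse thus had relatively more Ifitm3 than any wild-type mouse, also rNLS8 mouse 1, whose Ifitm3 level overlapped the wild-type range. Of the further members of the family, neither Ifitm10 (log2 fold change 0.16, standard error 0.074, edgeR adjusted p = 0.0761) nor Ifitm7 (-0.24, standard error 0.13, edgeR adjusted p = 0.136) passed over both cohorts. In cohort B alone Ifitm7 was lower (-0.36, standard error 0.14, edgeR adjusted p = 0.0486), and in cohort A its value was -0.01 (standard error 0.23). Ifitm5 and Ifitm6 had too few counts to be tested, with means of 0.66 and 1.80 normalized counts in wild-type and 0.29 and 3.50 in rNLS8 mice.

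The Mx genes lie next to each other on chromosome 16, Mx1 from 97447035 to 97462906 on the minus strand and Mx2 from 97536081 to 97560901 on the plus strand. Both were sparsely counted in wild-type mice. Mx1 had between 1 and 9 reads in a wild-type mouse and between 18 and 106 in an rNLS8 mouse. Its lowest, median and highest normalized counts were 1.04, 3.21 and 9.28 in wild-type and 17.2, 31.5 and 100.2 in rNLS8 mice. No value overlapped, and rNLS8 mouse 8 stood at more than the double of any other mouse, the next being mouse 9 at 47.4. The log2 fold change was 3.23 (standard error 0.31), with 4.60 (standard error 0.55) in cohort A and 2.58 (standard error 0.27) in cohort B. In 3 of the 4 wild-type mice of cohort A it had only 1 or 2 reads, so the value of cohort A is uncertain.

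Mx2 had 4.17, 12.3 and 15.7 normalized counts as lowest, median and highest in wild-type mice and 30.4, 60.5 and 149.3 in rNLS8 mice. The groups did not overlap, and the lowest wild-type value came from mouse 8, whereas the highest rNLS8 values came from mice 8 and 9 at 149.3 and 106.9. The log2 fold change was 2.65 (standard error 0.23), with 3.21 (standard error 0.44) in cohort A and 2.34 (standard error 0.22) in cohort B. Of the 100-base stretches of the GENCODE transcripts, 41 were shared between Mx1 and Mx2, which is 0.929% of those of Mx1 and 1.13% of those of Mx2.

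Rsad2 (chromosome 12, 26442743 to 26456452, minus strand) encodes viperin, a radical SAM enzyme of the endoplasmic reticulum and of lipid droplets. Wild-type mice ranged from 27.1 to 60.6 normalized counts with a median of 39.1, and rNLS8 mice from 102.9 to 392.2 with a median of 177.3. The lowest rNLS8 mouse was above the highest wild-type mouse. The log2 fold change of 2.23 (standard error 0.15) was 2.27 (standard error 0.28) in cohort A and 2.21 (standard error 0.17) in cohort B. Cmpk2, a mitochondrial nucleotide kinase that neighbors Rsad2 and is often induced with it, had 532.8 ± 32.8 (SD, n = 11) and 746.4 ± 70.4 (SD, n = 10) normalized counts. Its log2 fold change was 0.49 (standard error 0.053), and all 10 rNLS8 mice were above every wild-type mouse.

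Bst2 (chromosome 8, 71534255 to 71537472, minus strand) encodes tetherin, which is anchored in the plasma membrane at both ends. The lowest, median and highest normalized counts were 36.4, 51.5 and 69.9 in wild-type and 119.5, 283.4 and 623.7 in rNLS8 mice. All rNLS8 mice were above the wild-type range, with mouse 1 lowest and mice 8 and 9 highest at 623.7 and 479.1. Its log2 fold change was 2.58 (standard error 0.16), with 2.90 (standard error 0.26) in cohort A and 2.40 (standard error 0.18) in cohort B. Bst2 also showed the greatest widening of the spread between mice among the 10 genes. After removal of the cohort means, the SD on the log2 scale was 0.21 in wild-type and 0.51 in rNLS8 mice, 2.46 times as large. This ratio was 2.02 for Ifitm3 and 1.82 for Rsad2, and below 1 for Ifitm1 (0.64) and Ifi44 (0.81). Counting error adds to the wild-type SD of sparsely counted genes, such as Ifi44 (SD 0.66, 3 to 23 reads in a wild-type mouse). Their ratios are therefore uncertain and not comparable with those of well counted genes.

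Ifi27 and Ifi27l2a belong to the ISG12 family of small hydrophobic proteins and lie side by side on chromosome 12, Ifi27 from 103434189 to 103440245 on the plus strand and Ifi27l2a from 103433873 to 103443680 on the minus strand. Their RefSeq spans overlap, but they share no exonic base in GENCODE. Whether reads were counted by strand is not given in the sources used here, so reads from overlapping parts could have been assigned to either gene. For Ifi27 the lowest, median and highest normalized counts were 340.7, 431.1 and 680.1 in wild-type and 794.5, 1144 and 1882 in rNLS8 mice. The groups did not overlap, and the log2 fold change of 1.43 (standard error 0.082) was the smallest of the 8 genes that were higher. It was 1.5 (standard error 0.17) in cohort A and 1.41 (standard error 0.083) in cohort B.

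Ifi27l2a, by contrast, had, over both cohorts, the largest difference of the 10 genes and the fourth largest log2 fold change of all genes tested. Its wild-type mice had 5.32, 9.48 and 16.7 normalized counts as lowest, median and highest, and rNLS8 mice had 54.9, 145.1 and 313.8. The lowest rNLS8 mouse was thus still above the highest wild-type mouse, and the ratio of the means was 15.2. The log2 fold change was 3.91 (standard error 0.23), with 4.40 (standard error 0.34) in cohort A and 3.64 (standard error 0.26) in cohort B. Reads of Ifi27l2a amounted to 0.010 to 0.036 of those of Ifi27 in wild-type mice and to 0.069 to 0.170 in rNLS8 mice, so the relation between these neighbors also differed without overlap. Ifi27l2b, another relative, had means of 0.75 and 0.38 normalized counts and was not tested.

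Ifi44 (chromosome 3, 151730922 to 151749910, minus strand) encodes an interferon-inducible protein with a GTP-binding motif. Wild-type mice had 3.13, 13.4 and 22.5 normalized counts as lowest, median and highest, and rNLS8 mice had 28.4, 76.1 and 145.5. No value overlapped, and the log2 fold change was 2.51 (standard error 0.24), with 2.93 (standard error 0.31) in cohort A and 2.28 (standard error 0.29) in cohort B. Its relative Ifi44l was nearly uncounted, with means of 0.19 normalized counts in both genotypes.

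**Figure D2:**
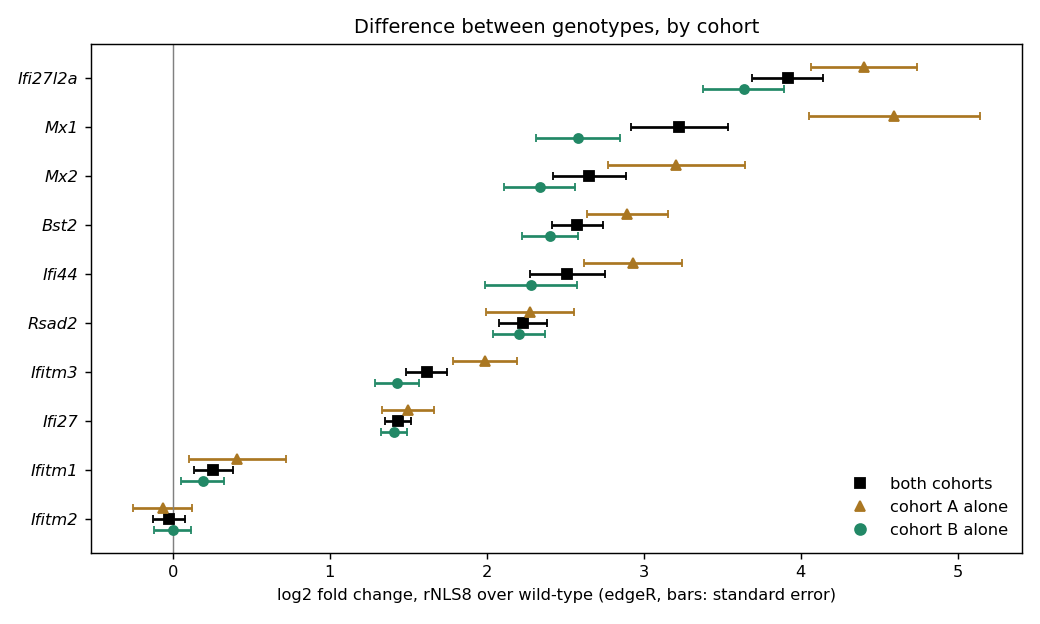
Log2 fold change of rNLS8 over wild-type mice (horizontal axis) for each gene, with squares for both cohorts, triangles for cohort A alone and circles for cohort B alone, and bars for the standard error of edgeR. The estimate of cohort A exceeds that of cohort B for every gene but Ifitm2, most for Mx1 at 4.60 against 2.58.

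Levels can be compared between genes only per length, and are therefore given here as CPM per kilobase of GENCODE exon. In wild-type mice the order was led by Ifi27 (14.7 ± 2.98, SD), Ifitm3 (12.6 ± 2.17) and Ifitm2 (10.8 ± 2.35), whose ranges overlapped. Bst2 followed at 2.72 ± 0.55, then Ifi27l2a (1.04 ± 0.37) and Ifitm1 (1.01 ± 0.21), which did not differ beyond their spread. Rsad2 had a lower mean at 0.456 ± 0.12, but its range, up to 0.655, overlapped those of Ifi27l2a (from 0.538) and Ifitm1 (from 0.546). Mx2 (0.140 ± 0.045), Ifi44 (0.105 ± 0.044) and Mx1 (0.050 ± 0.032) came last with overlapping ranges. In rNLS8 mice Ifi27 (39.1 ± 9.51) and Ifitm3 (38.6 ± 14.4) were at the same level within their spread. By their means, Bst2 (16.1 ± 7.34) and Ifi27l2a (15.8 ± 6.93) formed the next pair, above Ifitm2 at 10.4 ± 1.94 though with overlapping ranges. The place of Ifitm2 in both genotypes is uncertain, since 34.9% of its 100-base stretches also occur in other genes. Rsad2 (2.09 ± 0.85) and Ifitm1 (1.22 ± 0.18) followed, and Mx2 (0.890 ± 0.46), Ifi44 (0.600 ± 0.24) and Mx1 (0.484 ± 0.28) had the lowest means. Their ranges reached 1.94, 1.11 and 1.24 and overlapped that of Ifitm1, from 1.05. The summed level of the 10 genes, without correction for length, was between 34.5 and 62.5 CPM in wild-type and between 71.3 and 223.8 CPM in rNLS8 mice.

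The interaction of genotype and cohort was used to ask if the effect of the transgene was equal in cohorts A and B. None of the 10 genes passed an edgeR adjusted p under 0.05, and 0.00% of the 18248 genes tested did so. At an unadjusted p under 0.05, 1 of the 10 genes was called, beside 5.64% of all genes, and DESeq2 called none of the 10 at the adjusted threshold and 2 at the unadjusted one, beside 5.45% of all genes. The 1 gene that DESeq2 called at the adjusted threshold was Tardbp, whose effect was smaller in cohort A by a log2 difference of -0.57 (standard error 0.099, DESeq2 adjusted p = 0.000213), while edgeR gave -0.56 (adjusted p = 0.133). The further row Tardbp-2 had -0.53 and passed in neither (DESeq2 adjusted p = 0.0733, edgeR adjusted p = 0.532). Of the 10 genes, the one past the unadjusted threshold in edgeR was Mx1, and DESeq2 added Ifitm3 (DESeq2 unadjusted p = 0.0457). For Mx1 the effect was larger in cohort A by 1.99 on the log2 scale (standard error 0.67, edgeR unadjusted p = 0.00683, adjusted p = 0.853). In wild-type mice of cohort A its mean rested on only 2.36 ± 1.33 normalized counts (SD, n = 4), against 5.01 ± 2.64 (SD, n = 7) in cohort B. Without rNLS8 mouse 8 the difference for Mx1 was 1.35, and with Xist as a covariate it was 1.91 (standard error 0.70, edgeR unadjusted p = 0.0120, adjusted p = 0.842). The effect in cohort A was nominally larger for 9 of the 10 genes, with a median difference of 0.49, but these estimates share the same mice.

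Point estimates of the other interactions ranged from -0.10 (standard error 0.22) for Ifitm2 to 0.84 (standard error 0.49) for Mx2. For Ifitm3 the difference was 0.53 (standard error 0.26), for Ifi27l2a 0.73 (standard error 0.50) and for Bst2 0.46 (standard error 0.33), all estimated with rNLS8 mouse 8. Without this mouse the differences were 0.34 for Ifitm3, 0.38 for Ifi27l2a, 0.17 for Bst2, 0.44 for Mx2 and 0.32 for Ifi44. Other omissions enlarged them, to 0.72 for Ifitm3, 0.73 for Bst2 and 1.19 for Mx2 without rNLS8 mouse 10, to 0.99 for Ifi27l2a without wild-type mouse 8 and to 0.91 for Ifi44 without wild-type mouse 9. Rsad2 (0.04, standard error 0.34) and Ifi27 (0.06, standard error 0.18) had the smallest differences, and both turned negative, to -0.42 and -0.11, when rNLS8 mouse 8 was left out. With Xist as a covariate the difference of Rsad2 was -0.11 (standard error 0.31), that of Ifi27 was 0.02 (standard error 0.18), those of the 7 genes other than these and Mx1 ranged from -0.10 (Ifitm2) to 0.73 (Mx2) with unchanged signs, and again none of the 10 genes passed the adjusted threshold.

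The levels of wild-type mice were also compared between cohorts. Of 9 genes tested (Mx1 had too few counts), 1 passed the adjusted threshold, beside 8.03% of the 18532 genes tested, and 4 passed an unadjusted p under 0.05, beside 24.8%. This was Ifi27, with 555.2 ± 87.2 normalized counts (SD, n = 4) in cohort A and 407.9 ± 38.4 (SD, n = 7) in cohort B (log2 difference 0.44, standard error 0.095, edgeR adjusted p = 0.0147). Rsad2 had 53.5 ± 7.36 and 35.8 ± 7.31 normalized counts (SD), and its log2 difference of 0.57 (standard error 0.17) was close to the threshold in edgeR (adjusted p = 0.0535) and past it in DESeq2 (adjusted p = 0.0466). Ifitm2 and Bst2 had higher values in cohort A as well, by 0.38 (standard error 0.14) and 0.40 (standard error 0.15), which did not pass (edgeR adjusted p = 0.102 and 0.107). Ifitm1 had the one negative estimate (-0.23, standard error 0.21), Ifitm3 had 0.25 (standard error 0.12), and Mx2, Ifi27l2a and Ifi44 had differences between 0.02 and 0.06, none of which passed. With Xist as a covariate, none of the 9 genes passed, beside 1.76% of the genes tested, and 3 passed an unadjusted p under 0.05, beside 18.6%. The difference of Ifi27 was then 0.42 (standard error 0.12, edgeR adjusted p = 0.0934) and that of Rsad2 0.45 (standard error 0.21, edgeR adjusted p = 0.260). Ifitm2 had 0.43, Bst2 0.36, Ifitm3 0.18 and Ifitm1 -0.29. The estimates of Mx2 (-0.07, standard error 0.40), Ifi27l2a (-0.14, standard error 0.39) and Ifi44 (-0.21, standard error 0.44) turned negative, all within their errors. The 4 wild-type mice of cohort A all expressed Xist, so a difference between the cohorts and one that goes with Xist cannot be fully told apart in these mice.

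**Figure D3:**
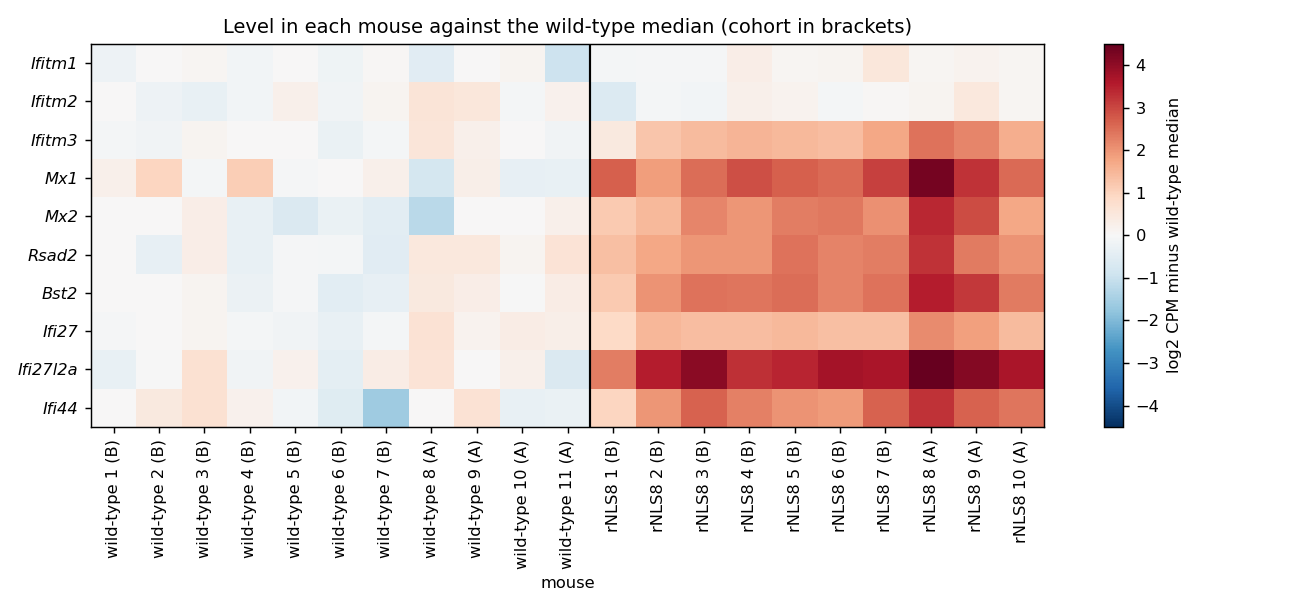
Log2 CPM of each gene (rows) in each mouse (columns, cohort in brackets) minus the median of the 11 wild-type mice, with red for higher and blue for lower levels. rNLS8 mouse 8 is the darkest column for most genes and rNLS8 mouse 1 the palest, and the rows of Ifitm1 and Ifitm2 show no shift between the genotypes that compares with the others, with single mice such as wild-type mouse 11 low for Ifitm1.

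Among rNLS8 mice the genes did not vary independently of each other. Mouse 8 of cohort A had the highest level for 8 of the 10 genes, and mouse 1 of cohort B the lowest for 9, the exception being Mx1, which was lowest in mouse 2. Mouse 9 of cohort A was among the top 2 for 7 genes. The mean log2 CPM of the 10 genes was 3.62 in mouse 8, 3.20 in mouse 9 and 2.68 in mouse 10 of cohort A, and between 1.92 (mouse 1) and 2.87 (mouse 7) in cohort B. Wild-type mice had means between 0.60 and 1.14, so even mouse 1 was above them. Tardbp counts of the rNLS8 mice were 2363 to 3091 in cohort A and 4405 to 5053 in cohort B. A relation of Tardbp to the level of the 10 genes was not tested. Leaving out mouse 8 lowered the log2 fold change of Mx1 from 3.23 to 2.95 and that of Ifi27l2a from 3.91 to 3.77. The number of genes that were higher remained 8, and they were the same 8 genes, in each of the 21 fits that left out a single mouse, in which between 21.9% and 23.3% of all genes tested were higher.

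**Figure D4:**
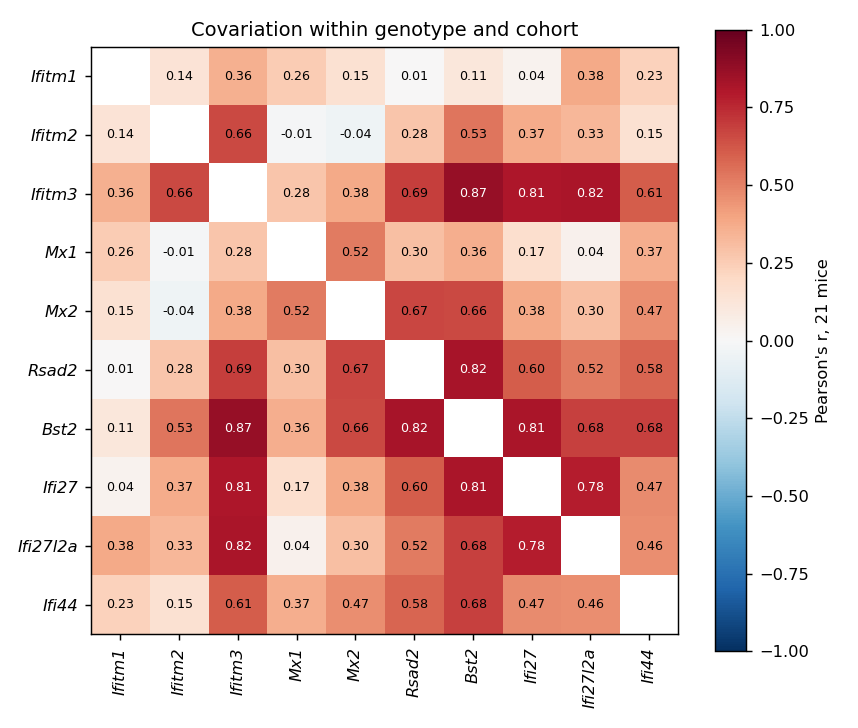
Pearson's r between the log2 CPM of each pair of genes over 21 mice (color and number in each cell), after the mean of each genotype within each cohort was removed. Bst2 and Ifitm3 have the highest value at 0.87, whereas Ifitm1 stays at or below 0.38 with every other gene.

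To describe how the genes covaried beyond the difference between genotypes, the mean of each genotype within each cohort was subtracted from the log2 CPM. Over the 21 mice, Bst2 and Ifitm3 were the closest pair (r = 0.87), followed by Bst2 with Rsad2 and Ifi27l2a with Ifitm3 (both r = 0.82) and Ifi27 with Bst2 (r = 0.81). The nearest gene to Ifitm2 was Ifitm3 (r = 0.66), although these differed in the comparison of genotypes. Mx1 was nearest to Mx2 (r = 0.52), and Mx2 to Rsad2 (r = 0.67). Ifi44 was nearest to Bst2 (r = 0.68). Ifitm1 had its highest value with Ifi27l2a (r = 0.38) and values of 0.01 with Rsad2 and 0.04 with Ifi27. For all 10 genes r was higher over the rNLS8 than over the wild-type mice, a difference that was not tested. The r of each gene with the mean of the others was 0.97 over 10 rNLS8 and 0.62 over 11 wild-type mice for Bst2, 0.90 and 0.24 for Rsad2, 0.89 and -0.03 for Mx2, and 0.60 and -0.21 for Ifitm2, while it was 0.84 and 0.67 for Ifi44. Genes with few counts carry more counting error, which lowers r. These mice share the cohorts and libraries, and rNLS8 mice 1 and 8 lie at the ends of most pairs, so the values describe these libraries only.

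Over the same residuals, the genes outside the 10 that were most like their mean were Irf9 (r = 0.93), Isg15 (0.92), Irgm1, B2m, Ifit3 and Ifit1 (all 0.90), Oasl2 (0.89), H2-K1-2 and Smim4 (both 0.88) and Irgm2 (0.87). Irf9 is the DNA-binding subunit of the interferon-activated complex, Isg15 a ubiquitin-like modifier, and B2m the light chain of MHC class I. In rNLS8 mice 9 of these had log2 fold changes between 1.13 (Irgm2) and 3.17 (Isg15). For Smim4 the value was 0.03 (standard error 0.082), at means of 91.1 ± 8.71 (SD) in wild-type and 92.7 ± 18.0 (SD) normalized counts in rNLS8 mice.

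The wider interferon pathway was described with lists that were drawn up with earlier results known. No interferon gene was tested, since the 21 listed genes had too few counts. Together they had 3 reads over 11 wild-type and 7 reads over 10 rNLS8 mice, none had more than 1 read in any mouse, and 15 had no read at all. For a gene without a read, the limit of 3 counts allows up to 0.135 to 0.145 CPM in a single mouse. Among 16 tested receptors and signaling genes, 8 were higher and 2 lower in rNLS8 mice, beside 23.0% and 21.7% of all genes tested, and the median log2 fold change was 0.18. The largest were those of Irf7 (3.21, standard error 0.20), the master regulator of interferon-α transcription, Usp18 (2.97, standard error 0.22), which removes Isg15 and dampens receptor signaling, and Irf9 (1.84, standard error 0.11). At the other end stood Socs3 (-0.28, standard error 0.11), Jak1 (-0.14, standard error 0.045) and Jak2 (-0.06, standard error 0.043), of which Jak2 did not pass the threshold (edgeR adjusted p = 0.235).

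**Figure D5:**
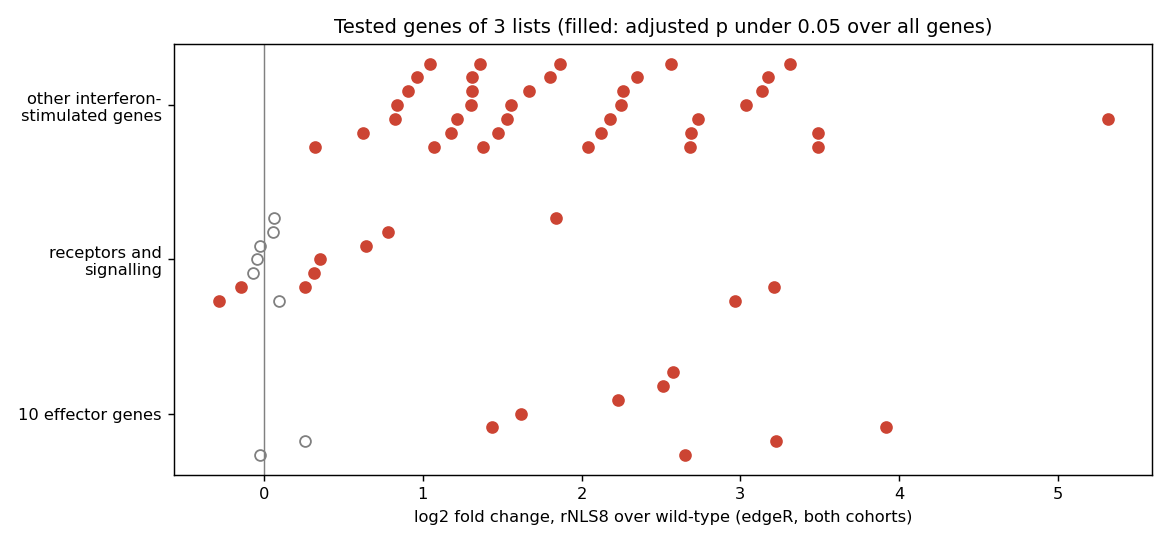
Log2 fold change of rNLS8 over wild-type mice (horizontal axis) for the tested genes of 3 lists, the 10 effector genes, 16 receptors and signaling genes and 38 other interferon-stimulated genes, with filled points for an edgeR adjusted p under 0.05 over all genes and small vertical offsets for legibility. All 38 other interferon-stimulated genes lie above 0, whereas the receptors and signaling genes include points on both sides.

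Of 39 other interferon-stimulated genes, 38 were tested and all 38 were higher, with a median log2 fold change of 1.74, beside 23.0% of all genes tested that were higher. Cxcl10, a chemokine that attracts T cells, had the largest value (5.31, standard error 0.29), from 3.56 ± 3.33 (SD, n = 11) to 142.5 ± 53.2 (SD, n = 10) normalized counts. It was followed by Zbp1, a sensor of Z-form nucleic acids (3.49, standard error 0.30), and Ifi209 (3.48, standard error 0.30). The smallest were Herc6, the mouse ligase for Isg15 (0.32, standard error 0.10), Slfn5 (0.63, standard error 0.078) and Ifih1, the RNA sensor MDA5 (0.83, standard error 0.10). Ifitm1 and Ifitm2 thus had lower point estimates than each of these 38 genes, a comparison of values that was not tested.

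Markers of cell types were examined beside these results, and their counts should be read beside the 23.0% of all genes tested that were higher and the 21.7% that were lower. Microglial markers had a summed level of 247.8 to 286.6 CPM in wild-type and 251.3 to 329.3 CPM in rNLS8 mice. Among rNLS8 mice this sum was highest in mouse 8 and lowest in mouse 1. Mouse 1 was also the lowest rNLS8 mouse for endothelial (192.8 CPM), meningeal (47.3 CPM) and neocortical markers (236.0 CPM). It was the highest for oligodendrocyte markers (3523 CPM), and mouse 8 was also the highest for astrocytic markers (4486 CPM). Of 7 microglial markers, 3 were higher in rNLS8 mice, namely Aif1 (log2 fold change 0.47), Tmem119 (0.18) and Csf1r (0.13), P2ry12 was lower (-0.35), and 3 did not pass. Of 6 tested markers of border macrophages and monocytes none passed in edgeR, and their sum was 6.12 to 11.4 CPM in wild-type and 6.93 to 15.3 CPM in rNLS8 mice, again highest in mouse 8. The other 2 listed markers had too few counts for the test, Plac8 with 1.51 ± 1.63 (SD) normalized counts for wild-type and 14.2 ± 8.32 (SD) for rNLS8 mice, of which 9 of 10 were above every wild-type mouse, and Ccr2 with 4.61 ± 1.89 (SD) and 8.47 ± 2.36 (SD) normalized counts, of which 7 of 10 were. Among astrocytic markers Gfap was higher by 1.03 and the other 5 were lower, and 4 of 6 neuronal markers were lower. Of the T and NK cell markers, Cd4 was the one with enough counts to be tested, and it was lower in rNLS8 mice (-1.24, standard error 0.33, edgeR adjusted p = 0.00345). The others had few counts, and their directions differed. Wild-type and rNLS8 means were 0.47 and 1.72 normalized counts for Cd8a, 0.47 and 1.15 for Cd3g, and 0.09 and 1.05 for Gzmb. They were 5.51 and 6.5 for Trac and 1.04 and 1.08 for Nkg7, but 0.94 and 0.57 for Cd3e and 0.37 and 0.19 for Klrb1c. Cd4, at 174.1 and 81.4, was far above these genes, so it was not read as a measure of T cells. No marker of B cells or neutrophils had enough counts. Endothelial markers included Ly6c1, which was higher (0.25), Flt1, which was lower (-0.17), and 4 genes not past the threshold. Choroid plexus markers varied widely among wild-type mice, from 19.0 to 2190 CPM in sum, and none of them passed, nor did any mural, meningeal or oligodendrocyte marker. The part of these cell types in the levels of the 10 genes was not tested.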

How the data were processed

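Total RNA from the cortex of 21 mice was sequenced as paired-end mRNA libraries and, according to the methods, aligned to GRCm38. Deposited values are the read counts of the authors, in whole numbers for each gene symbol and not normalized. The submitters' processing notes name HISAT, HISAT2, Bowtie, Bowtie2 and RSEM with no role, and the counting rule and strand setting are not given in the sources used here. Genotype and batch, here called cohort, were taken from the labels, and replicate numbers only name mice.

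Differences were tested with edgeR 4.0.16 under R 4.3.3 (filter by expression with a minimum count of 10 and a minimum total of 15, TMM, quasi-likelihood test, two-sided, Benjamini-Hochberg adjustment over all genes tested, threshold 0.05). Cohort was a covariate, genotype and cohort were combined in an interaction model, and cohorts were compared within the 11 wild-type mice. Standard errors are the log2 fold change divided by the root of F. Log2 CPM used a prior count of 2. DESeq2 1.42.0, other scalings and filters, no cohort term, each cohort alone, Xist as covariate (for the cohort comparisons added after seeing the data), removal of the 2553 rows of further copies and leaving out each mouse were alternatives. The procedures were tested on simulated data. No sample was left out, and p-values measure the spread between mice.

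The 10 genes and all lists were chosen with earlier results of these data known, and some listed genes are not reported here. Named besides the 10 genes were relatives and neighbors, the 3 largest and 3 smallest log2 fold changes of each pathway list, Tardbp, cell type markers and the 10 genes most correlated with the mean residual. Positions and promoters are from RefSeq (GRCm38.p6), and exons from GENCODE. Reads carry no molecular identifiers, so the limit of 3 counts covers counting error only.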

Additional observations from a re-analysis of the deposited data

Results flagged for a closer look

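The 10 genes were searched for a single mouse far from the others of its group on the log2 CPM scale, in the 10 rNLS8 mice, the 4 wild-type mice of cohort A, and the 7 wild-type and 7 rNLS8 mice of cohort B, which made 40 groups of values. The gap of the lowest or highest mouse to its nearest neighbor was divided by the range of the group and compared with Dixon's critical value for its size. Chance alone gives such a mouse in about 1 in 20 groups, and 5 were found. In 4 of them rNLS8 mouse 1 was the lowest of the 7 rNLS8 mice of cohort B, with a ratio of 0.752 for Ifi27, 0.62 for Ifitm3, 0.609 for Bst2 and 0.58 for Ifitm2. These 4 values come from a single library and are not independent. Mx2 was lowest in wild-type mouse 8 among the 4 wild-type mice of cohort A, with a ratio of 0.837, at 4.17 normalized counts against 12.3 to 14.9 in the others.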

How the results depend on the processing

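The number of genes higher in rNLS8 mice was 8 under 8 of 10 alternatives and in every fit without a single mouse. Among these 8 alternatives, the share of all genes tested that were higher was 6.99% with cohort A alone and 19.3% with cohort B alone. It is not printed for the others of the 8, so nothing is read from their counts. It was 5 when genes had to reach a mean of 50 counts, since 6 of the 10 genes then remained to be tested (25.7% of all genes tested were then higher), and 9 with scaling by library size only, which added Ifitm1 (log2 fold change 0.33) and under which 32.0% of all genes were higher. The same scaling turned Ifitm2 to 0.052, and leaving out single mice gave Ifitm2 values between -0.059 and 0.023. For the interaction none of the 10 genes passed with edgeR or DESeq2 under the 7 alternatives or in the 21 fits without a single mouse. Leaving out single mice moved the interaction of Rsad2 between -0.42 and 0.27, that of Ifi27 between -0.11 and 0.22 and that of Ifitm2 between -0.23 and 0.0066. Xist as a covariate of the cohort comparisons, chosen after seeing the data, turned the interaction of Rsad2 to -0.11. In the comparison of wild-type mice between cohorts, 2 genes passed with DESeq2 (10.7% of all genes), 2 with upper-quartile normalization (8.07%) and 0 with Xist as a covariate (1.76%), and 1 to 3 genes passed when single mice were left out, namely 2 without wild-type mouse 3 (4.94% of all genes) and 3 without wild-type mouse 10 (5.39%). The cause of these shifts was not tested. No paired analysis was possible because the labels number the animals and give no replicate number that is shared between groups. Genes with under 10 reads in wild-type mice, such as Mx1, are limited by depth.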
